A study of Mus musculus with 24 samples.

Results

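6 microRNAs known from fibroblasts and vascular smooth muscle, miR-143, miR-145, miR-21, miR-214, miR-199a-3p and miR-199a-5p, were quantified by real-time PCR in soleus muscle of mice that carry a PPAR transgene in muscle and of their littermates. Their assays were found by name, as the mouse assays without an asterisk on either of the study's PCR cards. All 6 of the 6 names were present, among 584 microRNA assays in all, and each was measured once per animal on the card called A. A microRNA counted as detected at a cycle threshold (Ct) under 35, the PCR cycle in which the signal passes a set threshold, so that a lower Ct stands for more template. miR-143, miR-145, miR-21, miR-214 and miR-199a-3p were detected in 12 of 12 animals, and miR-199a-5p in 5 of 12. The first 5 could be tested, among 268 tested assays.

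MicroRNAs are short RNAs that guide the silencing of messenger RNAs through pairing of their seed. miR-143 and miR-145 are cut from a shared transcript and are the classic microRNAs of vascular smooth muscle, where they favour the contractile state. miR-21 is high in activated fibroblasts and in many immune cells. miR-214 and miR-199a are made together from Dnm3os, a long non-coding RNA of mesenchymal cells, and are known from fibroblasts and the developing skeleton. In muscle, fibroblasts and the cells of vessel walls lie between the fibres and are sampled with them.

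The study set muscle with raised PPARα or PPARβ, nuclear receptors that drive the burning of fatty acids, beside wild-type muscle. The soleus, a postural calf muscle, was taken from male mice aged 12 weeks in 4 groups of 3. MCK-PPARa mice overexpress PPARα and MCK-PPARb mice PPARβ, each from a transgene that the labels call muscle-specific. NTGa and NTGb are the non-transgenic, wild-type littermates of the PPARα and the PPARβ line. MCK stands for muscle creatine kinase, whose promoter is active in muscle fibres, so the transgene is not directed at the fibroblasts and smooth muscle cells in which the microRNAs described here are best known. The labels call the replicates biological and name no litter.

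The mature sequences below show what the assays read and why some cannot be told apart. They come from the RefSeq table on GRCm38.p6, run 5′ to 3′, and carry the seed (bases 2 to 8) in capitals.
miR-21: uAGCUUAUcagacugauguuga
miR-214: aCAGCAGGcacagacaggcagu
miR-214*: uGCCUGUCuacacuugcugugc
miR-199a-3p: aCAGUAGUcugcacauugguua
miR-199a-5p: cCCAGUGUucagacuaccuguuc

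No seed was shared among these 5 sequences. The seeds of miR-214 and miR-199a-3p differed at 2 of 7 bases. miR-199a-3p has 2 identical copies in the table, from Mir199a-1 and Mir199a-2, and miR-199b-3p has the same letters, so its assay reads the output of all 3 genes together. Elsewhere among 1679 mature names, the seed of miR-214 recurs in miR-761 and that of miR-21 in miR-21c. The asterisk marks the other arm of a hairpin, and miR-214* is matched here to miR-214-5p.

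Both arms of Mir199a-2 and of Mir214 were on the cards, so these hairpins are shown with the arms in capitals. Mir199a-2 lies at chr1:162217814-162217923 and Mir214 at chr1:162223368-162223477, both on the plus strand of GRCm38.p6. The gap between them is 5444 bases, and the table places both inside Dnm3os.
Mir199a-2: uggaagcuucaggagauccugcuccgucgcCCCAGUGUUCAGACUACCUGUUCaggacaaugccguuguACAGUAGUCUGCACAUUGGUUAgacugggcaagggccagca
Mir214: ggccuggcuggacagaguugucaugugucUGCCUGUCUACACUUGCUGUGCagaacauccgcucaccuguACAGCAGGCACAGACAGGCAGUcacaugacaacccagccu

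The mature miR-21 lies at chr11:86584120-86584141 on the minus strand, in a gene, Mir21a, that overlaps Vmp1. The table also places Mir199a-1 inside Dnm2, Mir199b inside Dnm1, and Mir143 and Mir145a side by side in the long non-coding RNA Carmn.

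Levels are given on the log2 scale as the average Ct of the 149 microRNAs found in every animal on card A minus the Ct of the microRNA, so 1 unit is a doubling if template doubles in each cycle. Levels of different microRNAs also hold the efficiency of each assay and are not ranked against each other. The animals had 248 to 296 microRNAs detected, and their median correlation with the other animals ran from 0.933 in MCK-PPARa replicate 1 to 0.974. NTGb replicate 2 had the most microRNAs detected, 296 against 261 and 248 in the other NTGb animals. It was the highest or the lowest of the 12 animals for each of the 5 tested microRNAs. The share of all tested assays for which it was so was not counted. Values of MCK-PPARb against NTGb turned or moved strongly by its removal are also given without this animal. For the other comparisons this was done in part. All 7 microRNAs taken as marks of muscle fibres passed the filter on detection.

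Neither transgene was accompanied by a called change in any of the 5 tested microRNAs. limma called 0 of 5 in MCK-PPARa against NTGa and 0 of 5 in MCK-PPARb against NTGb at an adjusted p under 0.05, and 0 of 5 at an unadjusted p under 0.05 in either comparison. Over all tested assays it called 6 of 268 (2.24%) in MCK-PPARa and 0 of 268 (0%) in MCK-PPARb, with 44 (16.4%) and 23 (8.58%) at an unadjusted p under 0.05. When the effect in one line was set against that in the other, limma called 0 of 5, against 3 of 268 (1.12%) over all assays and 28 (10.4%) at an unadjusted p under 0.05. Of the 5, miR-214 had the lowest p there, with an effect 0.97 higher in the PPARα line (SE 0.55, limma adjusted p = 0.563), or 0.44 (SE 0.31, adjusted p = 0.64) without NTGb replicate 2. In MCK-PPARa, 5 of 5 estimates were positive with a median of 0.08, where 157 of 268 assays were positive with a median of 0.12. In MCK-PPARb, 3 of 5 were positive with a median of 0.08, beside a median of 0.02 over all assays. In whole muscle, fewer cells of a type and less RNA per cell cannot be told apart.

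**Figure D1:**
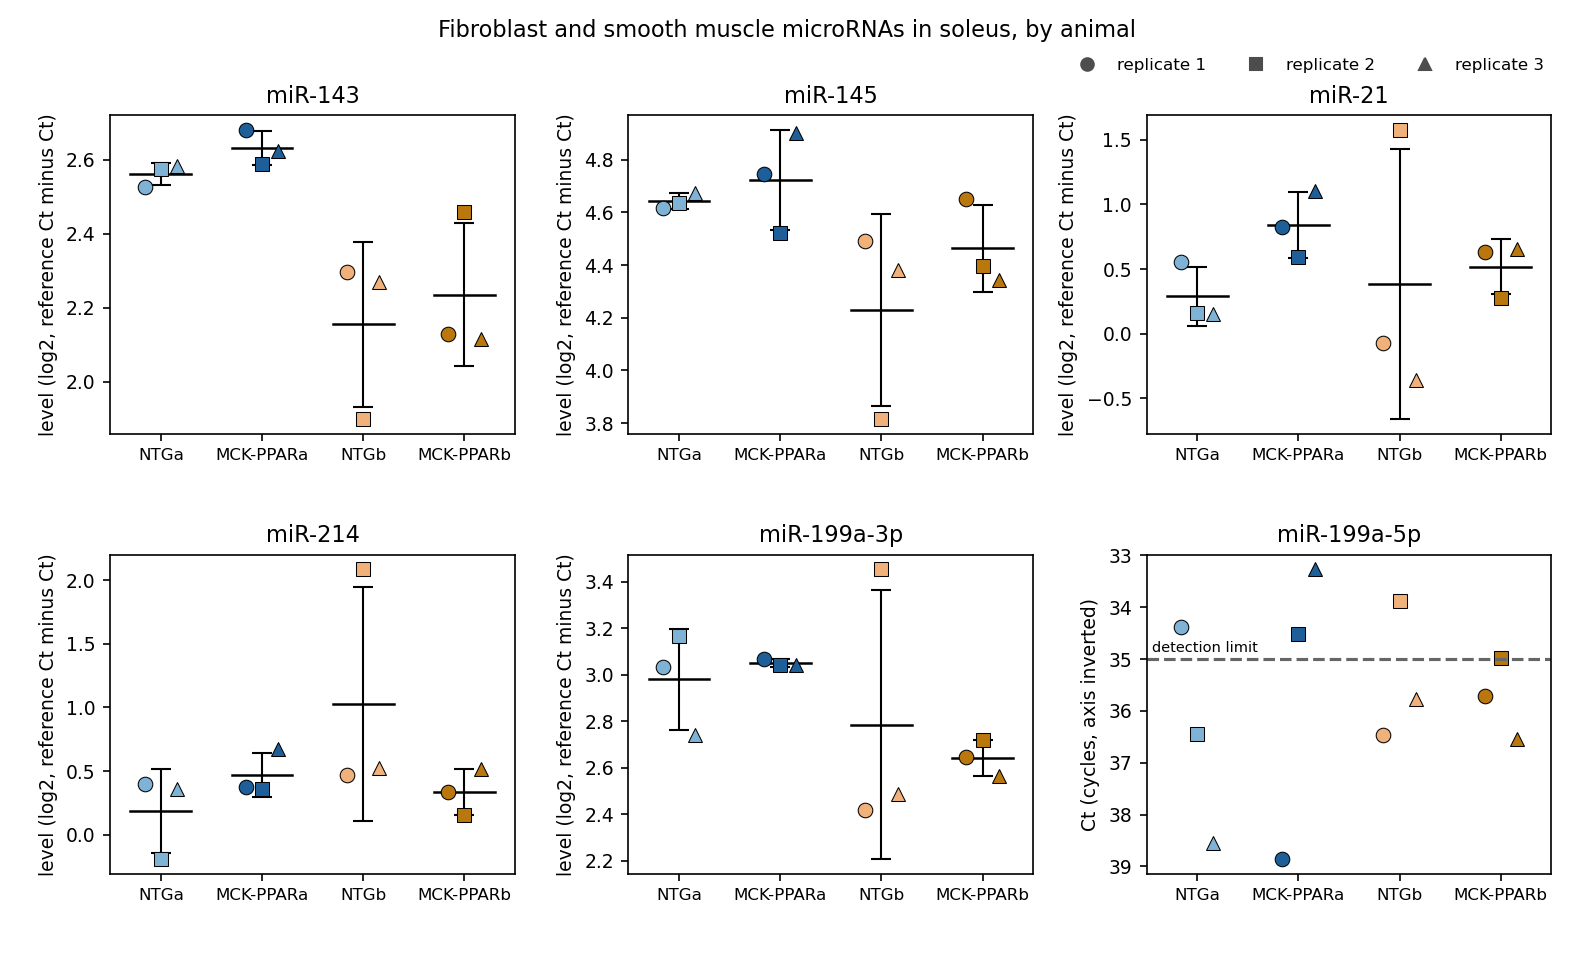
Level of each microRNA in every animal of the 4 groups, on the log2 scale (reference Ct minus Ct), with bars for the group mean and whiskers for 1 SD (n = 3); for miR-199a-5p the Ct itself is plotted on an inverted axis with the detection limit of Ct 35. The 6 animals of the PPARα line lie above the 6 of the PPARβ line for miR-143, and NTGb replicate 2 is the highest point for miR-21, miR-214 and miR-199a-3p.

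miR-143 was nearly constant within the PPARα line. Its level was 2.53, 2.58 and 2.58 in NTGa and 2.68, 2.59 and 2.62 in MCK-PPARa. In the PPARβ line it was 2.30, 1.90 and 2.27 in NTGb and 2.13, 2.46 and 2.12 in MCK-PPARb. The lowest animal of the PPARα line thus lay above the highest of the PPARβ line. Within a line the groups stood close together. MCK-PPARa differed from NTGa by 0.07 (SE 0.19, 95% interval -0.36 to 0.50, limma adjusted p = 0.869), and MCK-PPARb from NTGb by 0.08 (SE 0.19, interval -0.35 to 0.51, adjusted p = 0.882). With the endogenous controls, U6 snRNA or no scaling the first value was negative, and this held for miR-145 and miR-199a-3p as well. Without NTGb replicate 2 the second value was -0.049, and without MCK-PPARb replicate 2 it was -0.032.

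miR-145, made from the same transcript, gave 4.62, 4.63 and 4.68 in NTGa and 4.75, 4.52 and 4.90 in MCK-PPARa. It gave 4.49, 3.81 and 4.38 in NTGb and 4.65, 4.40 and 4.34 in MCK-PPARb. Here the lines overlapped only through MCK-PPARb replicate 1, which lay above 3 animals of the PPARα line. The transgenic groups differed from their littermates by 0.08 (SE 0.23, interval -0.42 to 0.58, limma adjusted p = 0.869) in the PPARα line and by 0.24 (SE 0.23, interval -0.26 to 0.74, adjusted p = 0.816) in the PPARβ line. Without NTGb replicate 2, the lowest of the 12 animals for both microRNAs, the latter was 0.028 (limma adjusted p = 0.954).

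The wild-type groups of the lines were set against each other next. limma called 5 of 268 assays (1.87%) between them, with 42 (15.7%) at an unadjusted p under 0.05, and 0 of the 5 microRNAs by either measure. NTGa exceeded NTGb by 0.41 for miR-143 (SE 0.19, limma adjusted p = 0.334) and by 0.41 for miR-145 (SE 0.23, adjusted p = 0.383), with 3 of 3 NTGa animals above every NTGb animal for each, and neither difference passed. Groups that do not overlap were found for 52 of 268 assays (19.4%) in this comparison and for 3 of the 5 tested microRNAs, miR-214 being lower in NTGa. Without NTGb replicate 2 the differences were 0.28 (adjusted p = 0.428) and 0.21 (adjusted p = 0.603). With U6 snRNA as reference they were 0.96 (adjusted p = 0.0397) and 0.97 (adjusted p = 0.0341), but that reference moved the median of all assays from -0.03 to 0.49.

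Because littermates and transgenic animals of a line lay together, the lines were also compared as wholes, a comparison added after these values were seen. The mean of NTGa and MCK-PPARa exceeded that of NTGb and MCK-PPARb by 0.40 for miR-143 (SE 0.14, interval 0.10 to 0.70), a 1.32-fold difference that did not pass over all assays (limma unadjusted p = 0.0145, adjusted p = 0.134). miR-145 differed by 0.34 (SE 0.16, limma adjusted p = 0.212) and miR-199a-3p by 0.30 (SE 0.19, adjusted p = 0.363). limma called 14 of 268 assays (5.22%) in this comparison, and 68 (25.4%) had an unadjusted p under 0.05 against 1 of the 5 microRNAs. Only 7 of 268 assays (2.61%) had lines that did not overlap, 3 higher in the PPARα line (1.12%) and 4 lower. Of the 5 microRNAs miR-143 was among the 3, beside miR-204 and miR-30c. Its difference ran from 0.26 to 0.70 over 12 alternatives and with any 1 animal left out. Changes of detection limit, filter or variance model could not move this estimate. As the lines did not overlap, leaving out 1 animal could not turn its sign. miR-143 passed with U6 snRNA as reference (limma adjusted p = 0.0331) and without scaling (adjusted p = 0.0351), as did miR-145 (0.0331 and 0.0377). Under the other settings the adjusted p of miR-143 reached 0.347. In raw Ct, miR-143 ran from 25.1 to 25.4 in the PPARα line and from 25.6 to 26.2 in the PPARβ line. Line and any order in which the samples were handled cannot be told apart here.

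**Figure D2:**
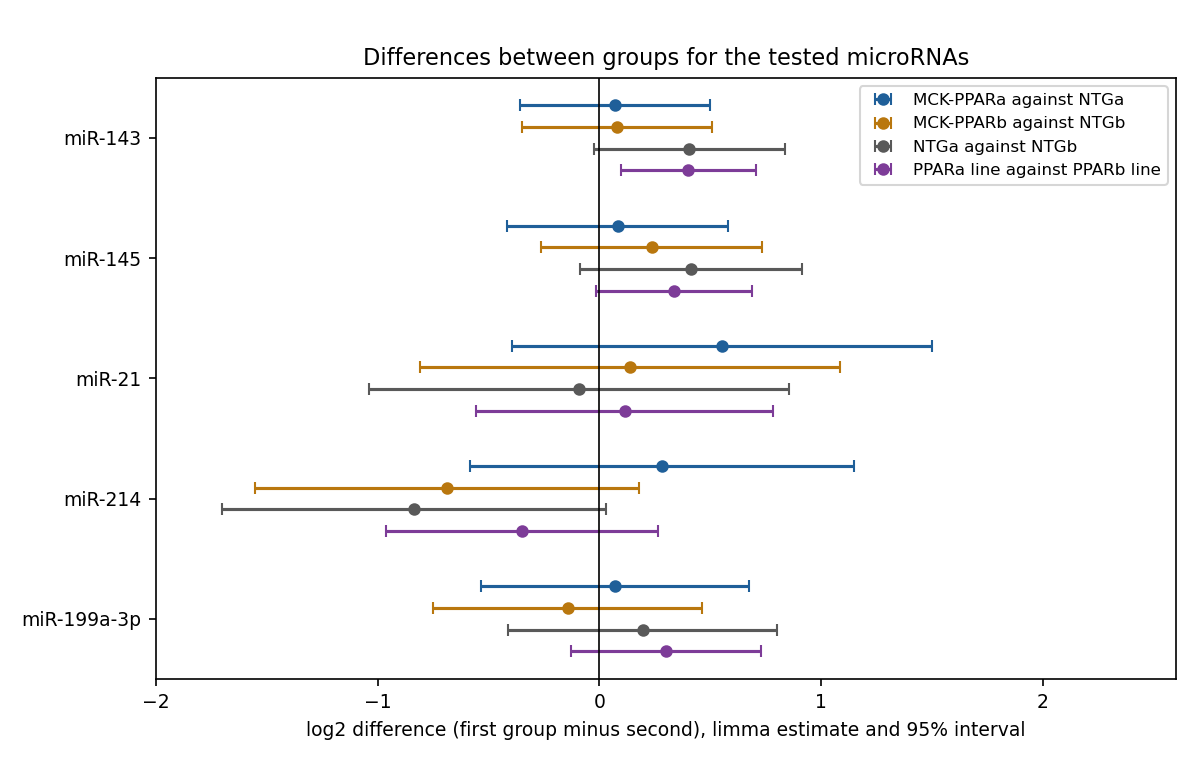
Estimated log2 difference of each tested microRNA in 4 comparisons (first group minus second), with 95% intervals from the limma fit over 12 animals. The intervals of both transgene comparisons include 0 for all 5 microRNAs, and the line comparison of miR-143 runs from 0.10 to 0.70 before adjustment over 268 assays.

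miR-21, the microRNA of activated fibroblasts and immune cells, had the largest of the 5 estimates in MCK-PPARa. Its level was 0.55, 0.16 and 0.16 in NTGa and 0.83, 0.59 and 1.10 in MCK-PPARa, so 3 of 3 transgenic animals lay above every littermate. The difference was 0.55, or 1.47-fold (SE 0.43, interval -0.40 to 1.498, limma adjusted p = 0.582), and it did not pass. Transgenic animals stood above all littermates for 40 of 268 assays (14.9%) and for 2 of the 5 tested microRNAs, miR-21 and, by a margin far smaller than its SE, miR-143. The value for miR-21 ran from 0.36 to 0.68 over 15 alternatives and with any 1 animal left out. Changes of detection limit, filter or variance model cannot move the estimate of a microRNA detected in every animal. As the groups did not overlap, leaving out 1 animal could not turn its sign. The lowest adjusted p of miR-21 over these was 0.21, without NTGb replicate 2, where the SE was 0.21.

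Markers of white blood cells lay in the same direction in that comparison. Of 6 tested leukocyte microRNAs, 5 had positive estimates in MCK-PPARa and none was called, with miR-142-3p at 0.62 (SE 0.35, limma adjusted p = 0.431) and miR-223 at 0.35 (SE 0.24, adjusted p = 0.52). The sixth, miR-150, was negative at -0.11, and the median of the list was 0.30 beside 0.12 over all assays. Their mean level ran from 1.79 to 2.08 in NTGa and from 2.16 to 2.32 in MCK-PPARa, without overlap. The mean of the muscle fibre list did not overlap either, lower at 4.13 to 4.21 in MCK-PPARa against 4.56 to 4.92 in NTGa. That list did not move as a whole. miR-499 was at -3.66 (SE 0.30, limma adjusted p = 3.9e-05) and miR-208b, detected in 0 of 3 MCK-PPARa animals, at -1.31. The others were miR-486 at 0.68, miR-206 at 0.36, miR-133b at 0.13, miR-133a at -0.08 and miR-1 at -0.11, none of them called. The mean of the endothelial list did overlap. In MCK-PPARb, 5 of the 6 leukocyte microRNAs were negative with a median of -0.25, while the estimate of miR-21 there, given next, was positive. The part of these cells in the level of miR-21 was not tested.

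In the PPARβ line miR-21 was widely spread. NTGb held both the lowest and the highest level of the 12 animals, with -0.07, 1.58 and -0.36, while MCK-PPARb stood at 0.63, 0.27 and 0.66. The difference was 0.14 (SE 0.43, interval -0.81 to 1.08, limma adjusted p = 0.915). MCK-PPARb and NTGb overlapped for each of the 5 microRNAs, while they did not for 41 of 268 assays (15.3%). Without NTGb replicate 2, every MCK-PPARb animal lay above the remaining 2 littermates and the difference was 0.73 (SE 0.23, adjusted p = 0.405). Without NTGb replicate 1 it was -0.090 and without NTGb replicate 3 it was -0.23, so the direction in this line depended on which littermates were kept. NTGa against NTGb was at -0.09 for miR-21 and turned to 0.50 without NTGb replicate 2. The effect in the PPARα line minus that in the PPARβ line turned from 0.42 to -0.18 without that animal.

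miR-214, from Dnm3os, was at 0.40, -0.19 and 0.36 in NTGa and 0.37, 0.36 and 0.67 in MCK-PPARa. It was at 0.47, 2.08 and 0.52 in NTGb and 0.33, 0.16 and 0.51 in MCK-PPARb. Only NTGb replicate 2 stood far from the rest, where the next highest animal had 0.67. MCK-PPARa differed from NTGa by 0.28 (SE 0.39, interval -0.59 to 1.15, limma adjusted p = 0.811), or by 0.091 without NTGa replicate 2. MCK-PPARb differed from NTGb by -0.69 (SE 0.39, interval -1.55 to 0.18, adjusted p = 0.559), which became -0.16 without NTGb replicate 2 (adjusted p = 0.809). The control groups differed by -0.84 (SE 0.39, adjusted p = 0.324), or -0.31 without that animal.

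miR-199a-3p was at 3.03, 3.16 and 2.74 in NTGa and 3.07, 3.04 and 3.04 in MCK-PPARa. It was at 2.42, 3.45 and 2.49 in NTGb and 2.64, 2.72 and 2.56 in MCK-PPARb. Apart from NTGb replicate 2, the PPARα line again lay above the PPARβ line in every animal. The transgenic groups differed from their littermates by 0.07 (SE 0.27, interval -0.54 to 0.68, limma adjusted p = 0.884) and by -0.14 (SE 0.27, interval -0.75 to 0.46, adjusted p = 0.882). Without NTGb replicate 2 the latter was 0.19. The difference between the lines was then 0.47 (SE 0.12) and passed with a limma adjusted p of 0.0481, against 0.30 and 0.363 with all animals. That animal had the highest level of all 12, so leaving it out could only widen this difference. The pass is a description, in a comparison added after the values were seen. With any 1 animal left out, limma called 10 to 19 assays in it.

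miR-199a-5p, the other arm of the same hairpin, was near the limit of the assay. Its Ct was 34.4, 36.4 and 38.6 in NTGa and 38.9, 34.5 and 33.3 in MCK-PPARa. It was 36.5, 33.9 and 35.8 in NTGb and 35.7, 34.98 and 36.5 in MCK-PPARb. No group had all 3 animals under Ct 35, so it was not tested, and animals above and below the limit stood in every group. In the 5 animals with both arms detected, the Ct of miR-199a-5p was 8.42 to 9.76 cycles above that of miR-199a-3p. That gap includes the efficiency of each assay, and the 3p assay also reads miR-199b-3p.

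**Figure D3:**
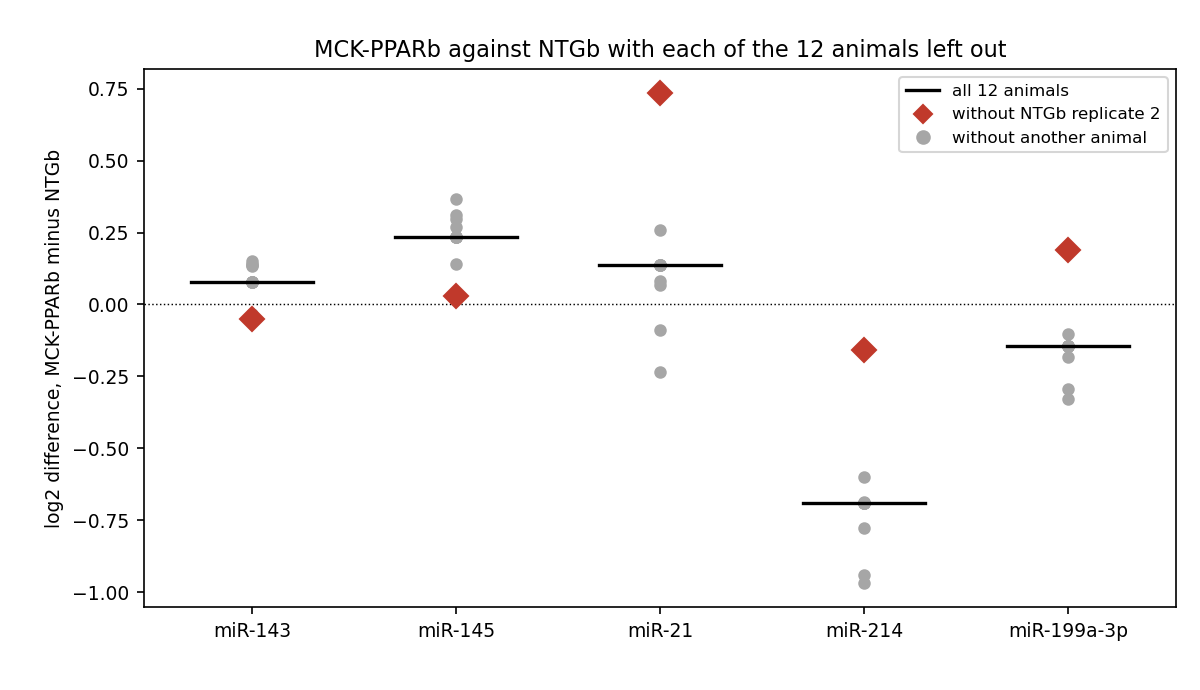
Log2 difference of MCK-PPARb against NTGb for each tested microRNA with all 12 animals (black line) and with each animal left out in turn (points). Leaving out NTGb replicate 2 (red diamonds) moves miR-21 from 0.14 to 0.73 and miR-214 from -0.69 to -0.16, and turns the sign for miR-143 and miR-199a-3p.

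NTGb replicate 2 lay at opposite ends of the 12 animals for the smooth muscle pair and for the other 3 tested microRNAs. Against the mean of the other NTGb animals it was 1.79 higher for miR-21, 1.59 higher for miR-214 and 1.00 higher for miR-199a-3p, and it was the highest of all 12 animals for each. For miR-143 and miR-145 it was the lowest of 12, at -0.39 and -0.62 against the other NTGb animals. The median absolute difference over 268 assays was 0.51, above the size of the difference for miR-143. Counted from the lowest of these assays, the differences stood at percentile 93.7 for miR-21, 92.2 for miR-214 and 85.4 for miR-199a-3p. For miR-145 and miR-143 they stood at percentiles 18.7 and 33.6. miR-214*, from the hairpin of miR-214, was also highest in this animal, at 0.66 against -0.95 in each of the other NTGb animals. miR-199b*, from Mir199b and detected in 4 animals, had its lowest mean Ct there, 33.9. miR-199a-5p had its lowest Ct elsewhere, in MCK-PPARa replicate 3 (33.3 against 33.9), and miR-21* was not detected in either animal by the mean of its wells.

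Relative to the reference Ct, several markers of other cells were low in this animal, as were miR-143 and miR-145. The reference Ct of card A was itself early there, at 27.56 against 28.39 and 28.44 in NTGb replicates 1 and 3. In raw Ct this animal was earlier than both for miR-143 (25.67 against 26.10 and 26.17), miR-145 (23.75 against 23.90 and 24.06) and miR-1. It was later than both for miR-133a (17.52 against 17.37 and 17.17) and miR-126-3p. Of 7 muscle fibre microRNAs, 4 were at their lowest of 12 animals, namely miR-1 (6.50 against 7.07 and 7.23 in NTGb replicates 1 and 3), miR-133a (10.05 against 11.02 and 11.27), miR-133b and miR-486. So were endothelial miR-126-3p (7.64 against 8.70 and 8.82), red-cell miR-451 and the leukocyte microRNAs miR-150 and miR-155. Endothelial miR-126-5p was not, at 6.97 where the lowest other animal had 5.96. The other leukocyte microRNAs were not low there. miR-142-3p (0.11 against -0.66 and -1.17) and miR-223 (2.58 against 1.93 and 2.13) lay above both other NTGb animals, and miR-146a and miR-342-3p lay between them. None of the 16 tested markers of these 4 kinds of cell was at its highest of 12. The share of all tested assays at an extreme in this animal was not counted, so these counts have no background beside them. The part of these cells in the levels of the 5 microRNAs was not tested.

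Differences taken within an animal between microRNAs of the same card do not depend on the reference used for scaling. miR-143 minus miR-145 was narrow, from -2.52 to -1.92 over the 12 animals with an SD of 0.17. The NTGa mean was -2.08 ± 0.0188 (SD, n = 3) and that of MCK-PPARa -2.09 ± 0.174, with a two-sided p of 0.9 in an exact permutation test. NTGb stood at -2.07 ± 0.143 and MCK-PPARb at -2.23 ± 0.292, with an exact p of 0.4. With groups of 3, the smallest p that this test allows is 0.1.

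miR-199a-3p minus miR-214, products of neighbouring hairpins, ranged more widely, from 1.37 to 3.36 with an SD of 0.50. It was 1.95, 1.37 and 1.97 in NTGb and 2.31, 2.56 and 2.05 in MCK-PPARb, so the transgenic animals were higher in 3 of 3 by 0.54 on average (exact p = 0.1, the smallest possible), or by 0.35 without NTGb replicate 2. In the PPARα line it was 2.63, 3.36 and 2.39 in NTGa and 2.69, 2.68 and 2.37 in MCK-PPARa (exact p = 0.8). NTGa also lay above NTGb in 3 of 3 (exact p = 0.1). NTGb was thus the group with the lowest values, and it remained so apart from replicate 2, with its other animals at 1.95 and 1.97 below the 2.05 of the lowest animal elsewhere.

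miR-214 and miR-214*, the arms of a single hairpin read on different cards, kept a difference of 0.74 to 1.96 in 11 animals. In MCK-PPARa replicate 1 it was 5.31. The level of miR-214 in that animal, 0.37, was like that of its group, while miR-214* was at -4.93 where the other animals had -1.88 to 0.66. Both wells of miR-214* gave a late Ct in that animal, 32.7 and 33.4. It was the animal with the lowest correlation to the others. miR-214* differed from littermates by -0.90 (SE 0.97, limma adjusted p = 0.745) in MCK-PPARa and by -0.45 (SE 0.97, adjusted p = 0.882) in MCK-PPARb. Each sign rested on 1 animal: without MCK-PPARa replicate 1 the first value was 0.47 (SE 0.56), and without NTGb replicate 2 the second was 0.087 (SE 1.11). miR-145* and miR-21*, the other arms of miR-145 and miR-21, were detected in 0 of 12 animals.

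**Figure D4:**
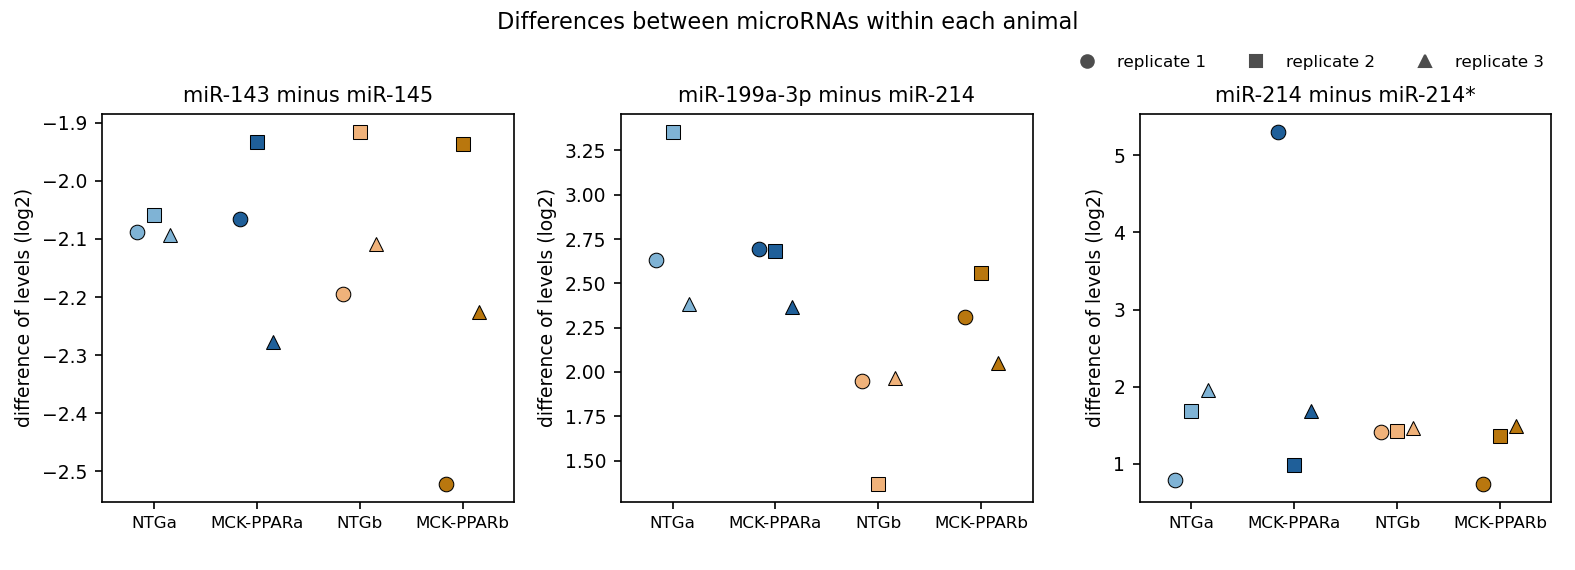
Differences of log2 levels between pairs of microRNAs within each of the 12 animals, by group. miR-143 minus miR-145 stays within -2.52 to -1.92, miR-199a-3p minus miR-214 is lowest in NTGb, and miR-214 minus miR-214* is 5.31 in MCK-PPARa replicate 1 against 0.74 to 1.96 elsewhere.

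The spread within groups set what could be seen. For miR-143 the SD within groups was 0.15 and for miR-145 it was 0.22, below the median of 0.27 over the 49 tested card A assays with a mean Ct of 23 to 28. For miR-21 (0.56), miR-214 (0.50) and miR-199a-3p (0.31) it was above that median. Without NTGb replicate 2 these values were 0.23, 0.22 and 0.12, against a median of 0.20. Wells of a pair on card B differed by a median of 0.192 cycles between Ct 25 and 30, and each of the 6 microRNAs had a single well per animal.

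The assays whose levels followed each microRNA most closely over the 12 animals were found among the 148 other card A assays detected in every animal. These coefficients were picked as the highest and are a description, over animals of 4 groups whose values share a scaling. For miR-143 they were miR-204 (Pearson r 0.91), miR-30c (0.84) and miR-30a (0.83), and for miR-145 miR-30a (0.88), miR-30c (0.88) and miR-203 (0.87). For miR-21 they were miR-339-5p (0.78), the leukocyte microRNA miR-142-3p (0.76) and miR-532-5p (0.76). For miR-199a-3p they were miR-503 (0.81), miR-21 (0.72) and miR-652 (0.69). For miR-214 they were miR-379 (0.95), miR-335-3p (0.90) and miR-409-3p (0.76), of which the first stood at 0.81 and the last at 0.13 without NTGb replicate 2. Without that animal miR-30a (0.61) and miR-30c (0.59) followed miR-145 less closely, as did miR-335-3p miR-214 (0.67). miR-204 still followed miR-143 (0.93).

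Lists of microRNAs with related roles were described beside these. Among 13 microRNAs known to repress collagens or the fibrosis factor Ctgf, of the miR-29, miR-30, miR-133 and miR-18/19 groups, 0 were called in either line. In MCK-PPARa, 10 of 13 were negative with a median of -0.05, led by miR-30d at -0.51 (SE 0.22, limma adjusted p = 0.289), miR-30e at -0.74 (adjusted p = 0.295) and miR-19a at -1.31 (adjusted p = 0.328). In MCK-PPARb, 7 of 13 were positive with a median of 0.10, and miR-29b, which acts on collagen messages, was at -0.68 (SE 0.28, adjusted p = 0.516). Among 5 tested microRNAs tied to the growth state of smooth muscle, 0 were called in either line, with medians of 0.16 and 0.25. Of these, 3 were positive and 2 negative in MCK-PPARa, and 4 and 1 in MCK-PPARb. The lowest p in MCK-PPARa was that of miR-221, at 2.22 (SE 0.81, limma adjusted p = 0.217). It was at 0.98 (SE 0.81, adjusted p = 0.787) in MCK-PPARb, and was detected in 2 of 3 NTGa animals. miR-222, which favours the growing state, was at 0.16 and 0.01 in the same order. It was 0.73 lower in the PPARα line than in the PPARβ line as a whole, which passed (limma adjusted p = 0.00954). Endothelial miR-126-3p was at 0.27 (limma adjusted p = 0.737) in MCK-PPARa and -0.10 (adjusted p = 0.909) in MCK-PPARb. The other endothelial assay, miR-126-5p, was at -0.85 (limma adjusted p = 0.443) and -0.37 (adjusted p = 0.872) in the same order. Only 2 of 7 epithelial microRNAs could be tested, and miR-122 of liver had a Ct under 35 in 1 animal of 12.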

How the data were processed

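RNAzol B extracts were assayed by TaqMan real-time PCR for 40 cycles, per the labels' protocols. The authors deposited a Ct for each well without normalization, per the file headers, and left wells with no call empty. Their software, threshold and baseline setting was not given in the sources used here. Each RNA was run on 2 cards, so the 24 samples are 12 animals. Each column was matched to a sample by name, and 0 were left over.

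Wells of an assay were averaged, an empty well beside a called one taken as Ct 40, a rule chosen after the files were seen. Values not detected were set to a floor of -6.56 (card A) or -5.66 (card B). An assay was tested where some group had it detected in 3 of 3 animals, which left 268. limma 3.58.1 in R 4.3.3 fitted 4 group means with 8 residual degrees of freedom. The p-values are two-sided and adjusted by the Benjamini-Hochberg method over all 268 assays. They measure the spread between these animals. The fit was tested on simulated data. Alternatives changed the reference, detection limit, filter, controls, variance model, weights and animals; leaving out animals for miR-214* and the within-animal differences was added after the values were seen.

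The rule for names took the 6 microRNAs, the assays of their other arms, the 3 most alike assays of each and up to 4 per further list. The markers at an extreme in NTGb replicate 2, miR-222 and the other assays whose lines did not overlap were named after their values were seen. The microRNAs and lists were chosen with earlier results of these data known.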

Additional observations from a re-analysis of the deposited data

How the results depend on the processing

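Over 640 repeats of the member tests 581 kept direction and side of the threshold, 52 turned sign, 7 newly passed and 0 stopped passing. The cause was not tested. None could stop passing, as none of the 5 microRNAs passed in the main fit. Many repeats could not turn a sign either. Changes of detection limit, filter or variance model leave the estimates of the 5 as they were. Leaving out an animal of the other line does the same for a transgene comparison. Comparisons are α (MCK-PPARa against NTGa), β (MCK-PPARb against NTGb), α minus β, controls (NTGa against NTGb) and lines. With a median reference, β gave -0.11 for miR-143 and -0.051 for miR-21, α minus β gave 1 call, 0.29 for miR-143 and 0.15 for miR-145, controls -0.10 for miR-199a-3p and lines -0.027 for miR-21. With endogenous controls, α gave -0.0149 for miR-143, -0.0027 for miR-145 and -0.0147 for miR-199a-3p, and controls 0.037 for miR-21. With U6 snRNA, α gave -0.12, -0.11 and -0.12 for the same 3, and β 0.17 for miR-199a-3p. α minus β gave 7 calls, -0.085 for miR-21 and -0.29 for miR-199a-3p, and controls 29 calls, 0.96 for miR-143, 0.97 for miR-145 and 0.46 for miR-21. Lines gave 27 calls, 0.70 for miR-143 and 0.64 for miR-145. Without scaling, α gave -0.12, -0.10 and -0.11, α minus β -0.017 for miR-199a-3p, controls 0.25 for miR-21, and lines 22 calls, 0.63 for miR-143 and 0.57 for miR-145. These references moved the median of all assays in the lines comparison from 0.03 to -0.10, 0.12, 0.38 and 0.27. Controls gave 0 calls at Ct 32, with no limit, with missing values and with assays detected in all 12 animals, 1 with no filter and 9 with only its own animals. Lines gave 8, 7 and 8 calls with no limit, full detection and no filter, and α 3 with missing values. Against the other line's controls, α gave -0.55 for miR-214, β -0.33 for miR-143, -0.18 for miR-145 and 0.15 for miR-214, and α minus β 14 calls, 0.80, 0.67 and -0.70 for the same 3. Against all 6 controls, α gave -0.14 for miR-214 and β -0.12 for miR-143. With animal weights, β gave 1 call and 0.13 for miR-199a-3p, α minus β 0.019 for miR-143, 0.035 for miR-145 and -0.056 for miR-199a-3p, and controls 14 calls and 0.28 for miR-21.

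With any 1 animal left out, calls ran from 4 to 12 (α; 12 without MCK-PPARb replicate 1), 0 to 1 (β), 2 to 6 (α minus β; 6 without NTGb replicate 2), 0 to 7 (controls) and 10 to 19 (lines). In α, miR-145 ran from -0.0065 (without MCK-PPARa replicate 3) to 0.18 and miR-199a-3p from -0.049 (without NTGa replicate 3) to 0.16, and miR-214 from 0.091 to 0.39. In β, miR-143 ran from -0.049 to 0.15, miR-21 from -0.23 to 0.73 and miR-199a-3p from -0.33 to 0.19. In α minus β, miR-143 ran from -0.081 to 0.12, miR-145 from -0.28 to 0.054, miR-21 from -0.18 to 0.79, miR-199a-3p from -0.12 to 0.40 and miR-214 from 0.44 to 1.25. miR-21 ran from -0.47 to 0.50 in controls and from -0.072 (without NTGb replicate 3) to 0.41 in lines, and miR-199a-3p from 0.21 to 0.47 in lines. The replicate number as a block changed no call of the 5 microRNAs, with miR-21 at 0.55 and an adjusted p of 0.657 in α (limma). Deviations of same-numbered animals correlated at -0.288 to 0.222, so the numbers were not taken as pairs. With 3 animals a group, the median 95% interval over all assays reached 0.84 to either side.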

Other observations

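Beside miR-143, miR-204 and miR-30c, lines that did not overlap were found for 4 assays lower in the PPARα line, in the comparison of lines added after the values were seen. miR-31 was lower by -2.37 (limma adjusted p = 0.0156), miR-193b by -1.21 (adjusted p = 0.0117) and miR-222 by -0.73 (adjusted p = 0.00954), which passed, and miR-125b* stood at -0.53 (adjusted p = 0.107), which did not. miR-204 was at 0.69 (adjusted p = 0.0601) and miR-30c at 0.38 (adjusted p = 0.194). The highest miR-143 minus miR-145 in each of the 4 groups was in replicate 2, at -2.06 in NTGa, -1.93 in MCK-PPARa, -1.92 in NTGb and -1.94 in MCK-PPARb.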
